A study of Mus musculus with 4 samples.

Results

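Bmal1 ChIP-seq peaks near the genes of Eph receptors and ephrins were examined in the mouse retina at postnatal day 5 (P5) and postnatal day 3 (P3). The members were 9 genes, the receptors Epha3, Epha4, Epha5, Epha6, Epha7, Ephb1 and Ephb2 and the ligands Efna5 and Efnb2, and each peak belongs to the gene that the deposited lists name for it, chosen by the shortest distance from a transcription start site (TSS). Of the 12723 genes named at least once in the 12 lists used, 8 were members, and the remaining member, Ephb2, was named in none. The members were chosen with earlier results of these data known, so their values beside those of all genes are descriptions. Retinas were collected at zeitgeber time 4, and Bmal1, a circadian transcription factor and partner of CLOCK, was precipitated together with its DNA. There were 2 libraries at P5 (replicates 2 and 3) and 2 at P3 (replicates 4 and 5), and 1 library of input DNA served as background for all of them. The labels describe every library as retina and give no genotype, treatment, strain or sex, and they do not say whether the replicates came from separate animals, so the spread between them may be technical. The antibody carries another catalogue number in the methods than in the labels. A list of peaks does not show expression, so the tissue could not be checked against marker genes here.

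Eph receptors are the largest family of receptor tyrosine kinases. Their ligands, the ephrins, are themselves held in the membrane, the ephrin-A proteins by a lipid anchor and the ephrin-B proteins by a transmembrane segment, so that signaling needs contact between cells and can run in both directions. In the visual system, graded EphA and ephrin-A proteins guide the axons of retinal ganglion cells to their places in the superior colliculus, and EphB and ephrin-B proteins act along the other axis of the map. Ephrin-B2 is also a marker of arterial endothelium and acts in the sprouting of vessels. Bmal1 and CLOCK bind E-boxes, of which CACGTG is the form best known from clock genes.

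The peaks were called by the authors in each library, and again after pooling the libraries of an age, once as narrow peaks of 138 to 170 bp and once as broad regions of at least 500 bp. The score of a peak is its number of tags (aligned reads) per 10 M, and the steps between scores correspond to 55.2 to 68.3 M tags per library. The reporting summary of the paper states a lower sequencing depth. The paper's counts of candidate sites at P3 and P5 are also lower than those of the pooled narrow lists used here (3625 and 486 peaks). The cause of these differences was not tested. P3 replicate 4 stood apart, with 9543 narrow peaks, against 200 in P5 replicate 2, 1336 in P5 replicate 3 and 944 in P3 replicate 5. Its weakest narrow peak held 12 tags, whereas the weakest peaks of the other libraries held 17. The broad lists held 7435 and 9915 regions at P5 and 25380 and 10782 regions at P3 (replicates 4 and 5). Sums over the P3 or over all 4 libraries rest in part on that library, and the main ones are also given without it, an alternative chosen after seeing the data.

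In the 4 libraries, 62 narrow peaks were named for members. P5 replicate 2 had 0 of them, P5 replicate 3 had 9, P3 replicate 4 had 48 and P3 replicate 5 had 5. The 2 ages overlapped, since P5 replicate 3 lay above P3 replicate 5. The mean was 4.5 ± 6.36 peaks at P5 and 26.5 ± 30.4 peaks at P3 (SD, n = 2 each). The difference was -22 peaks (exact two-sided permutation test, p = 0.667), and its size was below the SD at P3. Without P3 replicate 4 the difference was -0.5 peaks, and without P3 replicate 5 it was -43.5 peaks. With 2 libraries per age this test cannot give a p below 0.333, so it cannot decide whether the ages differ. Relative to the length of each list the libraries were closer to each other. Members took 0.674% of the narrow peaks in P5 replicate 3 (95% Clopper-Pearson interval 0.308 to 1.27%), 0.503% in P3 replicate 4 (0.371 to 0.666%) and 0.530% in P3 replicate 5 (0.172 to 1.23%). For P5 replicate 2, 0 of 200 peaks has an upper Clopper-Pearson limit of 1.83%, and the limit of 3 counts that a count of 0 allows is 1.5%. Per 1000 peaks the difference P5 minus P3 was -1.79, and without P5 replicate 2, an alternative chosen after seeing the data, it was 1.57, so its sign turned on that library. All intervals cover counting error only.

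Broad regions of members numbered 46 and 49 at P5 (replicates 2 and 3) and 180 and 91 at P3 (replicates 4 and 5). Here the ages did not overlap, and the mean was 47.5 ± 2.12 regions at P5 and 135.5 ± 62.9 regions at P3 (SD, n = 2 each, exact two-sided permutation test, p = 0.333, the smallest p possible). As shares of the lists the members took 0.619% and 0.494% of the regions at P5, against 0.709% and 0.844% at P3. The length of the lists moved with the counts, and its part in the difference was not tested.

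**Figure D1:**
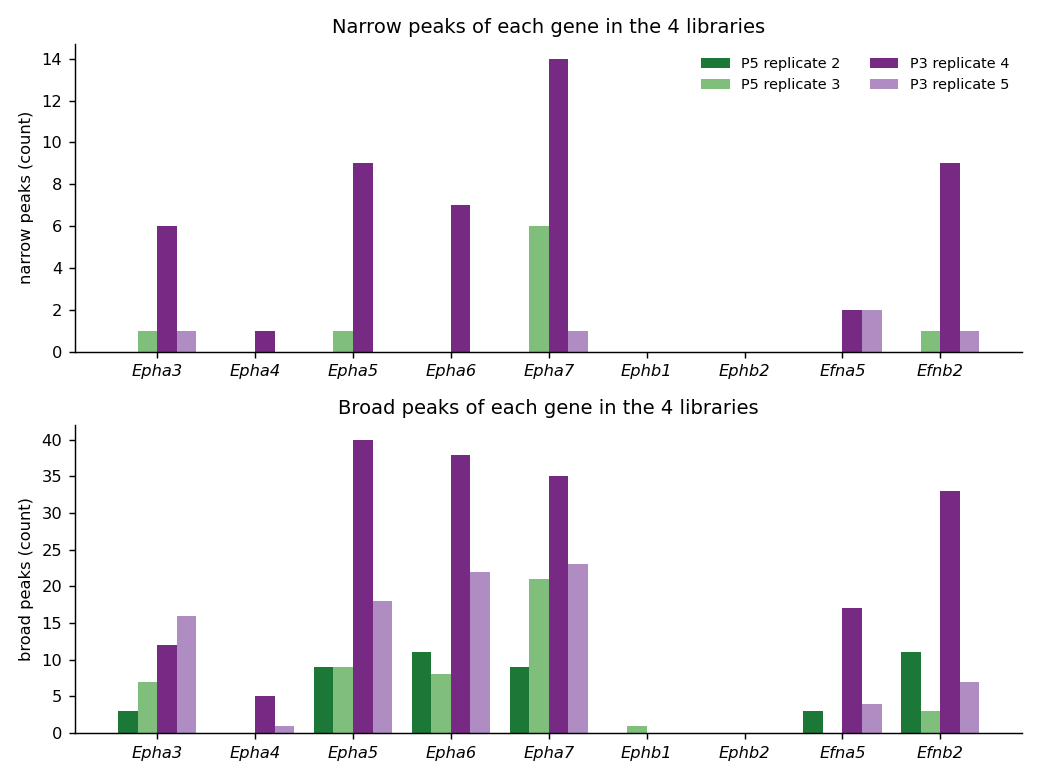
Number of narrow peaks (top) and broad regions (bottom) named for each member in P5 replicates 2 and 3 and P3 replicates 4 and 5, as bars. P3 replicate 4 had 48 of the 62 narrow peaks, P5 replicate 2 had 0, and Ephb1 and Ephb2 had no narrow peak in any library.

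In the pooled lists, 1 of the 9 members (Epha4) had a narrow peak at P5 and 6 had one at P3. Over all genes, 3.62% had one at P5 and 20.4% at P3. Here and in later shares of genes, all genes means the 12723 named in at least 1 of the lists. Genes named in none are left out of that base, while Ephb2, also named in none, counts among the 9 members. The pooled P5 list held 1 member peak of 486 and the pooled P3 list 16 of 3625, or 0.206% (0.00521 to 1.14%) and 0.441% (0.252 to 0.716%). Broad regions lay near 7 members at each age, against 19.7% of all genes at P5 and 47.3% at P3. The pooled lists held 33 broad regions of members at P5 and 153 at P3, with 8 and 39 for Epha7, 9 and 28 for Epha6, 5 and 31 for Epha5, 5 and 27 for Efnb2, 3 and 21 for Epha3, 2 and 5 for Efna5 and 1 and 2 for Epha4. Each of these 7 members had fewer in the P5 list, which was the shorter list (0.690% and 0.779% of the regions were of members). In single libraries, narrow peaks marked 0 of the 9 members in P5 replicate 2 (1.53% of all genes), 4 in P5 replicate 3 (9.03%), 7 in P3 replicate 4 (42.0%) and 4 in P3 replicate 5 (6.54%). Broad regions marked 6 members in P5 replicate 2 (27.9% of all genes), 6 in P5 replicate 3 (34.6%), 7 in P3 replicate 4 (61.5%) and 7 in P3 replicate 5 (34.0%). In every list but the narrow list of P5 replicate 2, a larger share of the members than of all genes had a peak. Since the members were chosen with earlier results of these data known, nothing is read from this difference.

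The members also differed from other genes in how much of the genome lay nearest to them. The stretch of sequence nearest to the TSS of a member, by the curated RefSeq genes of GRCm38.p6, had a median of 0.874 Mb among the 9 members and a median of 42.9 kb among all 26180 genes. Efna5 had 2.15 Mb (place 24 by size of 26180 genes), Epha6 1.57 Mb (place 83), Epha5 1.36 Mb (place 123), Epha7 1.18 Mb (place 168), Epha3 0.874 Mb (place 342), Efnb2 0.655 Mb (place 584) and Epha4 0.35 Mb (place 1468). The members with no narrow peak had the smallest stretches, 0.132 Mb for Ephb2 and 0.101 Mb for Ephb1. Peaks were counted here by their position in these stretches, so they are not the set named in the lists. They numbered 54 narrow peaks in place of 62 and 343 broad regions in place of 366. Over these stretches the 4 libraries had 6.45 narrow peaks per Mb near members (54 peaks, 95% Poisson interval 4.85 to 8.42) and 4.54 per Mb in the whole genome. With the predicted RefSeq genes included, the stretches of the members shrank to 2.89 Mb with 21 peaks, or 7.26 per Mb. Without P3 replicate 4 the values were 1.43 per Mb near members and 0.937 per Mb in the genome. Broad regions numbered 41.0 per Mb near members and 20.2 per Mb in the genome, and the members were higher in every library, with 5.14 and 6.21 against 2.81 and 3.75 per Mb at P5 and 19.6 and 10.03 against 9.59 and 4.07 per Mb at P3. Without P3 replicate 4 the values were 21.4 per Mb near members and 10.6 per Mb in the genome. The members did not all share this. Broad regions were less dense than in the genome near Efnb2 (16.8 per Mb), Epha4 (17.1), Ephb1 (9.94) and Ephb2 (0), and narrow peaks near Epha6 (4.45 per Mb), Efna5 (4.19), Epha4 (2.86), Ephb1 (0) and Ephb2 (0). The value for Efnb2 rests on 11 broad regions, against 54 named for it. The base composition differed in parallel. GC content was 37.9% in the stretches of the members and 41.7% in the genome, and the narrow peaks of members had a median GC content of 34.1%, against 37.2% for all narrow peaks. The part of base composition in the higher density was not tested. The members were chosen with earlier results of these data known, and the Poisson interval covers counting error only. Nothing is therefore read from the higher density.

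**Figure D2:**
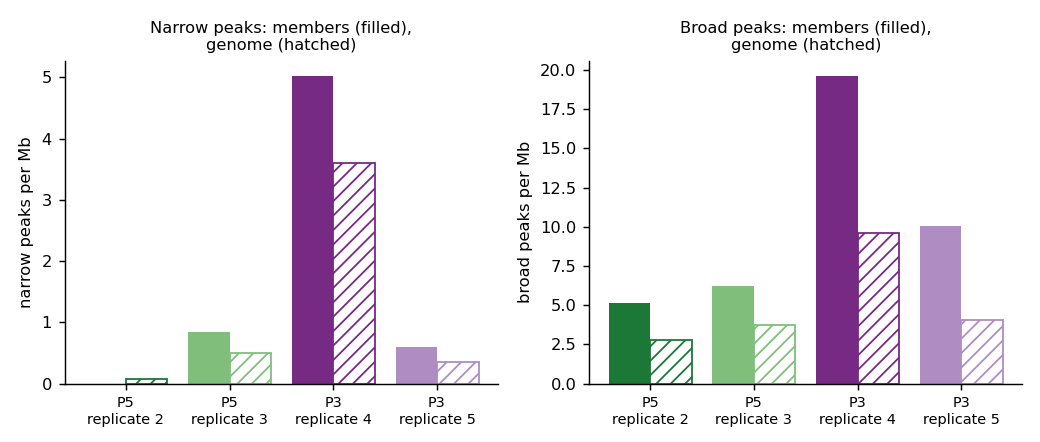
Narrow peaks (left) and broad regions (right) per Mb in the sequence nearest to the 9 members (filled bars) and in the genome (hatched bars), for each of the 4 libraries. The members as a whole exceeded the genome in every library for broad regions and in every library but P5 replicate 2, with 0 member peaks, for narrow peaks. The members were chosen with earlier results of these data known.

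The narrow peaks of members lay far from the genes they were named for. None of the 62 was within 10 kb of a TSS, against 14% of all narrow peaks of the 4 libraries, and the median distance was 391 kb for members and 70.0 kb for all (411 kb and 68.9 kb without P3 replicate 4). The peaks of members were intergenic in 50 cases (80.6%, against 58.4% of all narrow peaks), intronic in 11 and exonic in 1, and 22 of them (35.5%) lay more than 500 kb away, against 10.4% of all narrow peaks. Without P3 replicate 4, 13 of 14 member peaks were intergenic and 5 lay more than 500 kb away. Of the 366 broad regions, 4 lay within 10 kb of a TSS (1.09%, against 10.6% of all broad regions). The part of the wide stretches given above in these distances was not tested. The sequence of every one of the 62 narrow peaks had a median of 1 copy in the genome, counted by words of 31 bases, as did 98.5% of all narrow peaks.

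**Figure D3:**
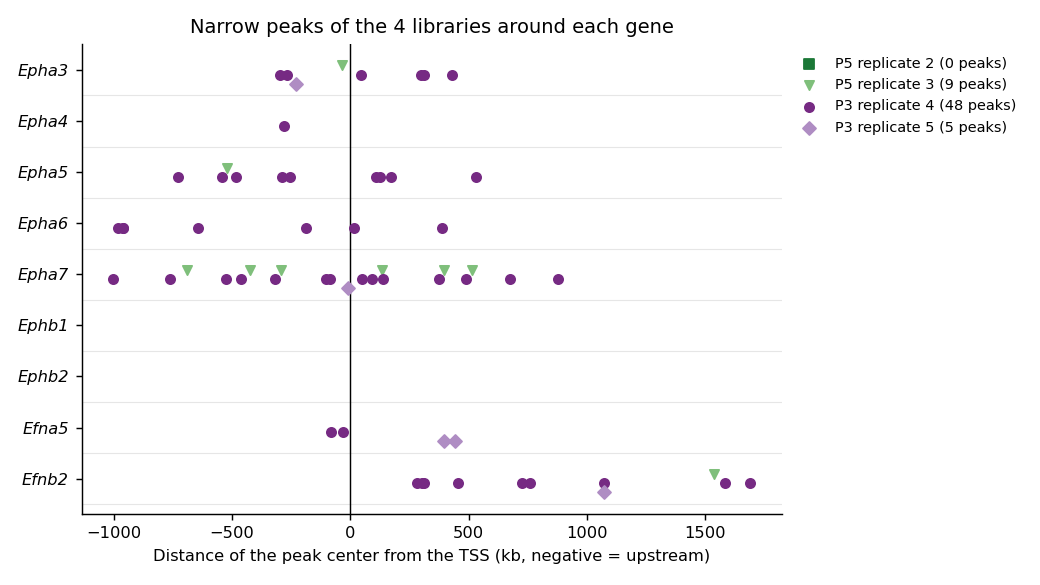
Distance of each narrow peak center from the TSS (kb, negative upstream) for each member, with a marker for each of the 4 libraries. No peak lay within 10 kb of a TSS, and all peaks of Efnb2 lay on its downstream side.

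Efnb2, the gene of ephrin-B2 (chr8:8617434-8661242, minus strand, GRCm38), held the sole narrow place found in more than 1 library. P3 replicate 4 had a peak at chr8:7587933-7588077 with a score of 3.44 (19 tags, 95% Poisson interval 11.4 to 29.7), and P3 replicate 5 had a peak at chr8:7588038-7588208 with a score of 4.11 (27 tags, 17.8 to 39.3). Both P5 libraries had none there. The peaks shared 40 bp, 27.6% of the shorter one, and their centers were 118 bp apart. The pooled P3 list, which is made from the same tags, had its peak between them at chr8:7587988-7588152 with a score of 3.56 (43 tags). By score this peak stood at place 39 of 944 in P3 replicate 5 and at place 6762 of 9543 in P3 replicate 4, and at place 43 of 3625 in the pooled list. The sequence of the whole place (chr8:7587933-7588208, plus strand) is shown since it carries the recurrence, with matches to CANNTG in capitals.
Efnb2 place: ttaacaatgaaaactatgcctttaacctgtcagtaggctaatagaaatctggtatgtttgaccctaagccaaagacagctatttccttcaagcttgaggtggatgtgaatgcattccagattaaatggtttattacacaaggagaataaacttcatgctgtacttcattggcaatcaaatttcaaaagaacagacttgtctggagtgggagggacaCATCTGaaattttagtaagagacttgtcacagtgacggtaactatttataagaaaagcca
It held 1 CANNTG. The more specific E-box searched in all peaks, CACGTG with the changes given with the E-box shares, was absent from both peaks and present in the 300 bp on either side of each.

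The place was also found in the broad lists of the same libraries, with 7.07 (39 tags) in P3 replicate 4 and 5.33 (35 tags) in P3 replicate 5, and with 6.12 (74 tags) in the pooled P3 list. The nearest broad region of P5 replicate 2 was 38.7 kb away and that of P5 replicate 3 174 kb away. The place was intergenic and lay 1073 kb from the TSS of Efnb2 on its downstream side. No GENCODE gene covered it, and the nearest was the lincRNA Gm30954 at 7.87 kb. The TSS of another noncoding gene, Gm17215, lay 207 kb away in the RefSeq annotation, so that the name Efnb2 rests on a gene set without it. Among all genes, 29 narrow places were found in more than 1 library, of which 20 were of 1 genome copy in every peak. P3 replicates 4 and 5 alone shared 15 of these places, 13 of them of 1 copy, and the Efnb2 place was among those 13.

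**Figure D4:**
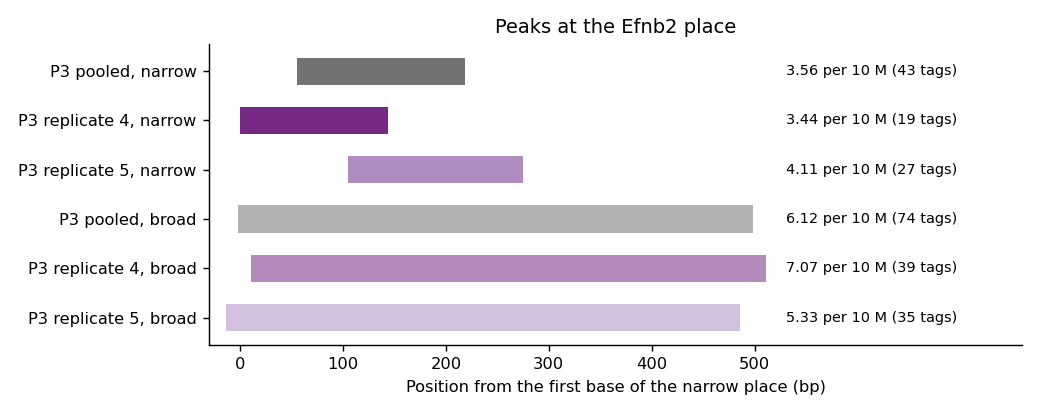
Extent of the narrow peaks and broad regions at the Efnb2 place in bp from its first base, for pooled P3, P3 replicate 4 and P3 replicate 5, with the score and tags of each. The narrow peaks of replicates 4 and 5 share 40 bp, and no peak of a P5 list falls in the plot.

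By peaks, 2 of the 62 narrow peaks of members overlapped a peak of another library (3.23%), against 0.507% of all narrow peaks. These 2 are the 2 peaks of the Efnb2 place, which was named in the choice of what to describe, so the shares are a description and nothing is read from their difference. They are 1 of the 48 member peaks of P3 replicate 4 (2.08%) and 1 of the 5 of P3 replicate 5 (20%), while over all genes the same pair of libraries shared 0.178% and 1.80% of their lists. In the pooled P3 list, 3 of the 16 member peaks overlapped a peak of a P3 library, against 27.4% of all peaks of that list. They were the Efnb2 place and, from P3 replicate 4, an Epha4 peak and an Epha6 peak.

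The other narrow peaks of Efnb2 were spread over its downstream side. P5 replicate 3 had 1 at 1537 kb (24 tags). In P3 replicate 4 there were 8 besides the shared one, at 282, 302, 314, 458, 725, 759, 1585 and 1690 kb, with 16 to 23 tags each. The peaks at 282 to 458 kb lay in introns of the lincRNA Gm31135. The pooled P3 list added peaks at 105, 185 and 981 kb with 35, 39 and 29 tags. Broad regions numbered 11 and 3 at P5 and 33 and 7 at P3. The strongest of P3 replicate 4 had a score of 10.7 (59 tags, chr8:7664018-7665093), 996 kb downstream. P5 replicate 2 also had a region there, with a score of 5.48, and so had the pooled P5 list (4.76, 62 tags) and the pooled P3 list (3.89, 47 tags), so this place was found at both ages. The strongest regions of the other libraries were 5.65 in P5 replicate 2 (2 regions of 35 tags each, at 1595 and 504 kb), 4.98 (34 tags, 899 kb) in P5 replicate 3 and 8.83 (58 tags, 400 kb) in P3 replicate 5, none of which overlapped a region of another single library. The region at 504 kb overlapped one of the pooled P3 list (4.14).

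Efna5, the gene of ephrin-A5, a graded ligand of the retinotopic map (chr17:62602957-62881317, minus strand), had no narrow peak at P5. In P3 replicate 4, peaks lay 31.9 and 81.0 kb upstream (19 and 20 tags), and in P3 replicate 5 they lay 395 and 442 kb downstream (25 and 20 tags), so that no place was shared. The pooled P3 peak lay elsewhere, 564 kb downstream (27 tags). Its broad regions numbered 3 and 0 at P5 and 17 and 4 at P3. The strongest had 5.00 (31 tags) in P5 replicate 2, in the first intron, 8.16 (45 tags) in P3 replicate 4 and 6.54 (43 tags) in P3 replicate 5. The region of 8.16 lay 244 kb upstream, in an intron of another protein-coding gene, Fbxl17. A broad region 9.94 kb upstream of the Efna5 TSS was in P3 replicate 4 alone (score 7.98, 44 tags). A place 550 kb downstream was found in P5 replicate 2 (4.68) and in P3 replicate 4 (5.08). These regions, chr17:62330790-62331290 and chr17:62331269-62331769, overlapped only at their ends, and neither pooled list had a region there.

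Epha7, a receptor with a short form that lacks the kinase domain (chr4:28813131-28967503, plus strand), had the most narrow peaks of the members, 21 in the 4 libraries. By this number it stood at place 4 among the 6101 genes with a narrow peak, and without P3 replicate 4, with 7 peaks, at place 2 of 1926, level with 1 other gene. These places are by raw counts of named peaks and take no account of its stretch of 1.18 Mb. With the curated genes, 13 of the 21 peaks kept Epha7. P5 replicate 2 had 0, P5 replicate 3 had 6, P3 replicate 4 had 14 and P3 replicate 5 had 1. The P5 peaks lay 689, 424 and 291 kb upstream and 133, 398 and 514 kb downstream, with 21 to 25 tags each. In P3 replicate 4 they lay 1001, 760, 524, 462, 318, 104 and 87.5 kb upstream and 48.4, 90.9, 137, 375, 488, 674 and 877 kb downstream, with 16 to 28 tags. None of these positions was shared between libraries. The peak of P3 replicate 5 lay 10.8 kb upstream (23 tags) and was the narrow peak of a member closest to a TSS. The pooled P3 list had 6 peaks, from 958 kb upstream to 337 kb downstream, with 30 to 38 tags, and none overlapped a peak of a single library.

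The Epha7 peak 133 kb downstream was the sole narrow peak of a member in an exon. P5 replicate 3 had it at chr4:28946254-28946424 with a score of 3.37 (23 tags), in the last exon of NM_001122889 (exon 10 of 10), the short transcript of the gene, in its 3' UTR. The broad lists had a region over it in P5 replicate 3 (5.71, 39 tags) and P3 replicate 5 (6.09, 40 tags), and in the pooled P5 list (3.99, 52 tags) and the pooled P3 list (6.04, 73 tags). P5 replicate 2 and P3 replicate 4 had none there. Of the 33 broad member regions of pooled P5, this place and that of Efnb2 at 996 kb were the 2 that overlapped a pooled P3 region. They are 6.06% of the P5 and 1.31% of the P3 member regions, and over all genes 6.84% of the pooled P5 regions overlapped.

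The strongest narrow peak of any member was the Epha7 peak 104 kb upstream in P3 replicate 4 (chr4:28708860-28709004, 5.08, 28 tags), in an L1_Mur2 element. A broad region covered it in the same library (8.34), and the broad list of P3 replicate 5 had one that overlapped that region (6.54). Broad regions of Epha7 numbered 9 and 21 at P5 and 35 and 23 at P3, and its strongest were 6.61 (41 tags) and 6.74 (46 tags) at P5, against 10.7 (59 tags) and 8.07 (53 tags) at P3.

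Epha6, a receptor gene of 952 kb (chr16:59653483-60605531, minus strand), had 7 narrow peaks, all in P3 replicate 4. They lay 981, 962, 961, 642 and 185 kb upstream and 15.5 and 386 kb downstream, with 16 to 23 tags. The pooled P3 list had peaks 981 kb (30 tags) and 559 kb (35 tags) upstream. The peaks at 961 and 962 kb stood in 1 broad region, chr16:61566627-61567655, which with a score of 15 (83 tags) was the strongest region of any member and stood at place 22 of 25380 in its list. P3 replicate 5 had a region there with a score of 4.26 and the pooled P3 list one of 10.7 (129 tags), while no P5 list had one.

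Nearer to its start, Epha6 had the broad regions closest to the TSS of any member, in its first intron. They lay 2.06 kb from the TSS in P3 replicate 4 (8.34, 46 tags) and 2.90 kb in P3 replicate 5 (5.33, 35 tags) and did not overlap. The pooled P3 list had regions at 2.77 kb (7.20, 87 tags) and 4.47 kb (4.05, 49 tags). A further place in the first intron, 13.7 kb from the TSS (chr16:60591252-60592138), was the one broad place of a member found in 3 libraries, with 4.68 in P5 replicate 2, 9.25 in P3 replicate 4 and 4.57 in P3 replicate 5. Of the broad places shared by 2 libraries of 1 age, the sole one at P5 was also of Epha6, 431 kb upstream, with 4.84 in P5 replicate 2, 4.39 in P5 replicate 3 and 5.37 in the pooled P5 list. Broad regions of Epha6 numbered 11 and 8 at P5 and 38 and 22 at P3. Beside the region of 15 in P3 replicate 4, the strongest were 6.13 (38 tags) and 5.42 (37 tags) at P5 and 7 (46 tags) in P3 replicate 5.

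Epha5, a receptor expressed in a gradient over retinal ganglion cells (chr5:84054761-84417382, minus strand), had 10 narrow peaks. P5 replicate 3 had 1, 520 kb upstream (20 tags). P3 replicate 4 had 9, at 728, 543, 481, 289 and 255 kb upstream and 111, 126, 171 and 530 kb downstream, with 15 to 24 tags, of which those at 111, 126 and 171 kb were intronic. The pooled P3 peaks lay 642 and 575 kb upstream (28 tags each). With 5 broad places in more than 1 library, Epha5 had the most of any member. They included an intronic place 341 kb from the TSS with 4.54 in P5 replicate 3 and 9.28 in P3 replicate 5, and one 626 kb upstream with 7.61 (P3 replicate 4) and 6.54 (P3 replicate 5). Its broad regions numbered 9 and 9 at P5 and 40 and 18 at P3. The strongest had 5.65 (35 tags, 2 regions) and 5.57 (38 tags) at P5, against 11.2 (62 tags) and 9.28 (61 tags) at P3, and the one nearest to the TSS lay 8.59 kb upstream in P3 replicate 5 (7.30, 48 tags).

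Epha3 (chr16:63543532-63864175, minus strand), a close relative of Epha5, had 8 narrow peaks. P5 replicate 3 had 1, 35.6 kb upstream (21 tags), and P3 replicate 5 had 1, 230 kb upstream (23 tags). The 6 of P3 replicate 4 lay at 297 and 267 kb upstream and 44.9, 301, 311 and 431 kb downstream, with 15 to 23 tags. Its broad regions numbered 3 and 7 at P5 and 12 and 16 at P3, so that here P3 replicate 5 had more than P3 replicate 4. The strongest had 6.61 (41 tags) and 7.32 (50 tags) at P5, against 7.79 (43 tags) and 6.85 (45 tags) at P3, values that overlapped between the ages. The intronic places 44.9 and 149 kb from the TSS were shared by both P3 libraries, at 4.53 and 4.35 for P3 replicate 4, and at 4.57 and 4.87 for P3 replicate 5. P5 replicate 3 alone had a region in the 3' UTR of the gene (chr16:63545547-63546047, 4.54, 31 tags).

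Epha4, a receptor that binds both classes of ephrin (chr1:77367185-77515088, minus strand), held the sole narrow peak of a member in the pooled P5 list. It lay 90.3 kb upstream at chr1:77605314-77605452 with a score of 2.23 (29 tags, 19.4 to 41.6) and was found in neither P5 library by itself. P3 replicate 4 had a peak 278 kb upstream (3.08, 17 tags), which the pooled P3 list also had (2.32, 28 tags). Broad regions numbered 0 and 0 at P5 and 5 and 1 at P3, none shared, the strongest with 7.07 (39 tags, 2 regions) in P3 replicate 4 and 5.33 (35 tags) in P3 replicate 5. The sequence of the P5 peak (plus strand) is shown as the one pooled narrow call at that age, with matches to CANNTG in capitals.
Epha4 peak: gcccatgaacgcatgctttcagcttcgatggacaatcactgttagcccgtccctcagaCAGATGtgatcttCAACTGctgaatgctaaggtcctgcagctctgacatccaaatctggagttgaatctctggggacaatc
It held 2 CANNTG, and neither the peak nor 300 bp on either side held the more specific E-box.

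Ephb1 and Ephb2, receptors of ephrin-B ligands, were named for almost no peaks. Ephb1 (chr9:101922128-102354693, minus strand) had 1 broad region, 11.9 kb upstream in P5 replicate 3 (4.83, 33 tags). Ephb2 (chr4:136647539-136836012, minus strand) was named for no peak in any list. These were the members with the smallest stretches of nearest sequence and with the highest GC content in them, 45.8% and 51.9%. The genes themselves span 433 kb (Ephb1) and 188 kb (Ephb2), more than their stretches of 0.101 and 0.132 Mb. Part of each gene thus lay nearer to the TSS of another gene in the curated set. Peaks there would carry another name, so the lists do not show that these genes lack peaks.

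Over all members, the broad regions of the 4 libraries formed 347 places, of which 18 (5.19%) were found in more than 1 library, against 3.62% of the places of all genes. Regions that met only at their ends count as shared here, and no stricter overlap was applied to the broad lists. Without P3 replicate 4 they were 5 of 181 (2.76%), against 2.19% of the places of all genes. By regions, 37 of 366 overlapped one of another library (10.1%), against 7.11% of all broad regions. Of the 18 places, 10 (55.6%, against 65.0% of the shared places of all genes) were shared between the ages, 7 between the P3 libraries alone and 1 between the P5 libraries. Epha5 had 5 of them, Epha6 4, Epha7 4, Epha3 2, Efnb2 2 and Efna5 1, and Epha4 and Ephb1 had none. Narrow peaks and broad regions of the same library coincided for 26 of the 62 narrow peaks (41.9%, against 31.7% of all). A broad region of another library was overlapped by 4 of them (6.45%, against 2.09% of all), 2 at the Efnb2 place, 1 at the Epha6 place at 961 kb and 1 in the 3' UTR of Epha7.

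**Figure D5:**
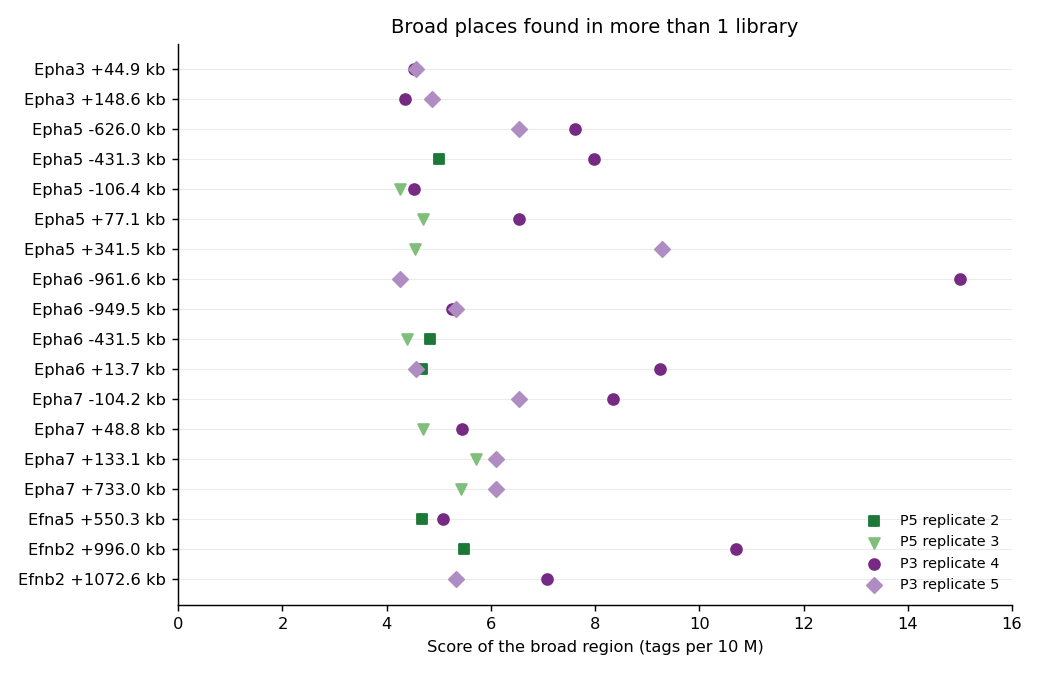
Score (tags per 10 M) of the broad region of each library at the 18 member places found in more than 1 library, labelled by gene and distance from the TSS (negative upstream). The Epha6 place at 13.7 kb is the one with 3 libraries, and the highest score is 15 in P3 replicate 4.

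The names of the peaks depended on the gene set. With the curated RefSeq genes of GRCm38.p6, 47 of the 62 narrow peaks kept their member as the gene with the nearest TSS. The other 15 lay nearer to noncoding genes, 8 Epha7 peaks to Gm11917 and 7 Efnb2 peaks to Gm17215. Of the 366 broad regions, 82 lay nearer to another gene, 43 of them Efnb2 regions and 37 Epha7 regions. Efna5 gained, with 9 narrow peaks in place of 4 and 77 broad regions in place of 24. All peaks of Epha4, Epha5 and Epha6 kept their gene.

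E-boxes were searched as CACGTG with either C or T in position 3 and either G or T in position 4, on both strands and in the peaks as called. Such an E-box was found in 17 of the 62 narrow member peaks (27.4%, 16.9 to 40.2%), and 30.6% of all narrow peaks of the 4 libraries had one. By library the member peaks with one were 3 of 9 in P5 replicate 3, 14 of 48 in P3 replicate 4 and 0 of 5 in P3 replicate 5, where all narrow peaks had 36.6%, 29.2% and 34.9%. Without P3 replicate 4 the share was 21.4% of the 14 member peaks and 36.1% of all. None of the 62 held the exact CACGTG (upper Clopper-Pearson limit 5.78%), which 1.16% of all narrow peaks held. With all 4 libraries, the share of all peaks lay within the interval of the member peaks. Epha7 had 9 of the 17, Epha5 4, Efnb2 2, Epha3 1 and Epha6 1, and Epha4 and Efna5 had none.

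The peaks with 2 or more of these E-boxes, and the strongest peak, are shown (plus strand, GRCm38) with the E-boxes in capitals. They are the Epha7 peak of P5 replicate 3 at chr4:29327010-29327180, 514 kb downstream (3.37, 23 tags), the Epha7 peak of P3 replicate 4 at chr4:28289350-28289494, 524 kb upstream (4.53, 25 tags), the Epha6 peak of P3 replicate 4 at chr16:61247274-61247418, 642 kb upstream (3.99, 22 tags), and the strongest Epha7 peak at chr4:28708860-28709004.
Epha7 peak of P5 replicate 3: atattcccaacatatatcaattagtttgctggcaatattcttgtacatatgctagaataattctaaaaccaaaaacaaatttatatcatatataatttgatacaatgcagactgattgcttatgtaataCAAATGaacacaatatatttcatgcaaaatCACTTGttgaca
Epha7 peak of P3 replicate 4: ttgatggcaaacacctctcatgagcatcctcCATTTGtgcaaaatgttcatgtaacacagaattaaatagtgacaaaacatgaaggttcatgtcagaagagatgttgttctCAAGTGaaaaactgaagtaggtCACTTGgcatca
Epha6 peak of P3 replicate 4: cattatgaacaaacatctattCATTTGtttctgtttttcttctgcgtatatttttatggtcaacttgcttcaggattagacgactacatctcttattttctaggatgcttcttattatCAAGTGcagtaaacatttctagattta
Strongest Epha7 peak: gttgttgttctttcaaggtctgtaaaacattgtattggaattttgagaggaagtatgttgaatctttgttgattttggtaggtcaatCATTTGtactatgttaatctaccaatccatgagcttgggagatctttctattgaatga
The first held 2 E-boxes, the second 3, the third 2 and the last 1, and in all of them the letters at positions 3 and 4 differed from those of CACGTG in at least 1 place. None of these peaks was found in a second library.

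Other genes of the pathway were read for comparison, by count. Of 13 further Eph receptors and ephrins, 0 had a narrow peak in the pooled P5 list and 0 in the pooled P3 list. In single libraries 2 of the 13 had one, Epha10 (20 tags, 5.19 kb from the TSS) and Epha2 (20 tags, 12.2 kb). Both peaks were of P3 replicate 4, where 42.0% of all genes had a narrow peak. The nearest sequence of the 13 was short, with a median of 0.0291 Mb. Of 28 partners of Eph signaling, 1 had a pooled narrow peak at P5 and 6 had one at P3. The highest scores were those of Anks1b (5.08, 282 kb from the TSS), Kalrn (4.89, 204 kb) and Chn1 (4.89, 43.6 kb) in P3 replicate 4. Of 14 genes that act on Eph and ephrin gradients in the retina, 2 had one at P5 and 1 had one at P3. Cyp26b1, an enzyme that degrades retinoic acid, had the highest score of that group (5.44, in P3 replicate 4). That peak lay 212 kb from its TSS, in an intron of the transcript NM_177077. The pooled narrow counts are to be read beside 3.62% (P5) and 20.4% (P3) of all genes. As a check of the ChIP, 13 clock targets were read too. Pooled narrow peaks marked 0 of them at P5 and 1 (7.69%) at P3. Pooled broad regions marked 0 at P5 and 1 (7.69%) at P3, against 19.7% and 47.3% of all genes. In no list was the share of the clock targets above that of all genes, so this check did not single them out. Their nearest sequence was short, with a median of 0.0304 Mb, and its part in this was not tested.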

How the data were processed

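Bmal1 ChIP-seq of retina was analysed from the 12 peak lists named in the report. A list of all 4 Bmal1 libraries pooled was not used. The authors aligned trimmed reads (bcl2fastq and Trim Galore) to GRCm38 (mm10) with bowtie2 and called peaks against the input. MACS2 is named as the caller in the submitters' processing notes, while the headers are those of HOMER, and their versions and cutoffs are not stated in the sources. The labels also list hg38, but the member distances matched the TSSs of RefSeq GRCm38.p6 (offsets of 469 bp for Efnb2 and 18 bp for Epha3). The deposited score is a signal in tags per 10 M, and tags were found as scores divided by the step between them (fitted on scores under 10, tolerance 0.0056). The authors' distance to the TSS is in bp. Libraries were assigned to lists by the key of library numbers that came with them.

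Overlap meant at least 1 shared base. Nearest sequence was counted without assembly gaps. Shares have 95% Clopper-Pearson intervals and tags exact Poisson intervals, for counting error only. The members and lists were chosen with earlier results of these data known. By the rule for named genes, all 9 members were named with every narrow peak, of broad regions the strongest, those at narrow peaks (as a count where not named) and those within 5 kb of a TSS or in exons or UTRs, and of other lists up to 3 genes of highest score. Not every gene that meets this rule is reported here. Other regions near a TSS and the places shared between libraries were named after their values were seen. Alternatives were broad lists, the upper 50% of scores, single libraries, other overlaps, E-box forms, windows and gene sets. The functions were tested on simulated data. Python 3.11.15, numpy 2.4.6, scipy 1.17.1 and pandas 2.3.3 were used.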

Additional observations from a re-analysis of the deposited data

How the results depend on the processing

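The counts depended on list and library. The single libraries were called separately, so their counts are not those of a pooled call with 1 replicate left out. At P5 the pooled narrow list had 1 member peak, against 2 with the nearest curated TSS, 33 in the broad list and 0 to 9 in the single libraries. The pooled narrow list named 1 member, against 7 in the broad list and 0 to 4 in the single libraries. At P3 the pooled narrow list had 16 peaks, against 153 in the broad list, 9 at or above the median score and 1 within 100 kb. The single P3 libraries had 5 to 48. The pooled list named 6 members, against 3 at or above the median score and 4 to 7 in the single libraries. The difference P5 minus P3 of -22 was -88 in the broad lists, -1.79 per 1000 peaks, -2.20 per 1000 broad regions and, chosen after seeing the data, -43.5 to -0.5 without 1 library. Per 1000 peaks it lay between -5.16 and 1.57 without 1 library, and the sign turned (1.57) without P5 replicate 2, the library with 0 of 200 peaks. The place in more than 1 library was lost with an overlap of 50% of the shorter peak (0 places). The broad lists gave 18, counted only by the overlap of at least 1 base. Leaving out P3 replicate 4 or 5, chosen after seeing the data, gave 0 places by definition, since the place is an overlap of their peaks. The E-box share was 0% for exact CACGTG, 51.6% for CANNTG and 88.7% with 300 bp on either side, where all narrow peaks had 1.16%, 53.0% and 84.0%. Density was 7.26 per Mb with predicted genes (21 peaks in 2.89 Mb), 41.0 per Mb in the broad lists and, chosen after seeing the data, 1.43 per Mb without P3 replicate 4. The cause of these changes was not tested. No paired analysis was possible because the ages share no replicate number. Narrow member peaks in single libraries rested on 15 to 28 tags, so weak places could be missed in any library, and absence from a list does not show absence of binding.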
